A study of Mus musculus with 13 samples.

Results

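After experimental injury of the mouse heart, 3 hearts whose animals had also been injected with a control virus were compared with 3 hearts whose animals had received no injection. These are 6 of the 13 whole hearts in the study, taken by their sample titles, and all genes in their read counts were compared. All animals were male wild-type C57Bl6 mice, aged 12 weeks at surgery and 17 weeks at collection. The IR hearts (n = 3) had undergone IR, ischaemia and reperfusion, in which blood flow to part of the heart muscle is blocked and then restored, and their animals received no injection. The IR virus hearts (n = 3) had the same surgery together with an injection of the control virus at 12 weeks of age. The other 7 hearts came from sham surgery without injection (Sham, n = 3) and from IR with injection of a functional CaMKIIδ editing system (IR edit, n = 4). They enter the fit for its estimate of spread, and Sham values stand beside the injury genes.

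The comparison asks what the control virus alone does to the injured heart 5 weeks later, and how large a difference the data leave room for. The labels do not give the kind of virus, its cargo, its dose or its route. Because the IR animals received no injection of any kind, the virus and the act of injecting cannot be told apart. Both groups carry the injury, so no value here concerns an uninjured heart with virus. The labels do not state outright that the samples of a group came from separate animals, so the p-values measure only the spread between these samples, which may be technical.

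Cells recognise viral DNA and RNA with sensors such as the Toll-like receptors, cGAS and RIG-I, which switch on the type I interferon genes. Interferon acts through transcription factors on interferon-stimulated genes, whose promoters often hold the interferon-stimulated response element, a repeat of GAAA blocks. Viral proteins can further be shown to T cells on MHC molecules and draw antibodies from B cells and plasma cells. In an injured heart, fibroblasts lay down scar matrix and the surviving muscle cells switch on stress genes such as those of the natriuretic peptides. A control virus is used to separate what a therapeutic cargo does from what its carrier does.

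The promoters of Isg15 and Ifit1, a pair of genes that interferon induces strongly, are shown as examples that hold this element. Both stretches are the 120 bases before the RefSeq transcription start in GRCm38.p6, written 5′ to 3′ on the strand of the gene. Capitals mark matches to the element, searched on both strands as GAAA, any 2 bases and GAAA again, with overlapping matches counted. Isg15 lies at chr4:156200819-156200938 on the minus strand and Ifit1 at chr19:34640769-34640888 on the plus strand.
Isg15: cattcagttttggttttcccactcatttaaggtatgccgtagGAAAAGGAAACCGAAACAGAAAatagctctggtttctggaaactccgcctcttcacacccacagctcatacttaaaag
Ifit1: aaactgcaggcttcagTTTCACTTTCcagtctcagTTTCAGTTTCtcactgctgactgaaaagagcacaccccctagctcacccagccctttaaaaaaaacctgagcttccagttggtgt
Isg15 has 3 overlapping matches, which begin 78, 72 and 66 bases before the start. Ifit1 has 2 matches on the opposite strand, 104 and 85 bases before the start. Not all such genes hold it: Irf7 had 0 matches in the 250 bases before its start. Cxcl10 had 1, outside the 120 bases nearest the start. Among all 32851 promoters in the table, 978 (2.98%) held the motif in the 250 bases before the start, and among the 10904 tested genes with a promoter it was 357 (3.27%).

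No gene differed between IR virus and IR past the threshold. Levels are given as CPM, counts scaled to a common library size, and the test was edgeR's quasi-likelihood test with a Benjamini-Hochberg adjustment over the 15690 genes that passed the filter on low counts. At an adjusted p of 0.05 it called 0 of 15690 genes (0%), and the smallest adjusted p was 0.962. At an unadjusted p of 0.05 the count was 603 genes (3.84%), with 354 higher in IR virus (2.26%) and 249 lower (1.59%). DESeq2 called 0 genes as well, with 464 at that unadjusted p. Without the filter on low counts 37 of 31973 genes were called, and without IR replicate 3 the count was 1. Without IR virus replicate 1 the unadjusted share was 1.54%, and without IR virus replicate 3 it was 7.07%. In the same fit, 1307 genes (8.33%) reached it in IR against Sham and 2411 (15.4%) in IR virus against Sham, and 2 were called in each. All 3 IR virus hearts lay above all 3 IR hearts for 920 genes (5.86%) and below them for 955 (6.09%), together 1875 genes (12%).

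The estimated differences were small. The log2 fold change, IR virus minus IR, had a median of 0.00063 over all tested genes, with quartiles at -0.10 and 0.12, with 7869 genes (50.2%) on the higher side and 7821 (49.8%) on the lower. An estimate beyond 2-fold was found for 81 genes, of which 70 had a mean under 1 CPM over the 6 hearts. No gene was without a count in all hearts of one group and at 5 or more counts in each heart of the other. With a minimum of 1 count in each heart, 103 genes were seen only in IR virus and 60 only in IR, with at most 10 counts summed over the 3 hearts in either case.

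The 95% interval of each gene's fold change shows how large a difference is left by 3 hearts against 3. Its spread was estimated over all 13 libraries, IR edit among them. In a fit of the 2 groups alone, 91.7% of 15065 genes lay within 2-fold. The interval lay wholly within 2-fold in either direction for 13622 genes (86.8%), within 1.5-fold for 10448 (66.6%) and within 4-fold for 15534 (99.0%). The median distance from the estimate to either end of the interval was 1.24-fold. A pair of one-sided tests against a limit, adjusted over all genes, placed 14160 genes (90.2%) inside 2-fold and 10848 (69.1%) inside 1.5-fold. These counts concern each gene by itself: a shift shared by many genes can be smaller than any of these limits.

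The level of a gene set how tightly it was bounded. Of the 2540 genes under 1 CPM, 32.6% had an interval within 2-fold, against 94.2% of the 5325 genes at 1 to 10 CPM and 99.5% of the 6681 genes at 10 to 100 CPM. Of the 1142 genes at 100 CPM or more, 99.1% lay within 2-fold and 96.3% within 1.5-fold. For genes of at least 1 CPM the count within 2-fold was 12795 of 13148 (97.3%).

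**Figure D1:**
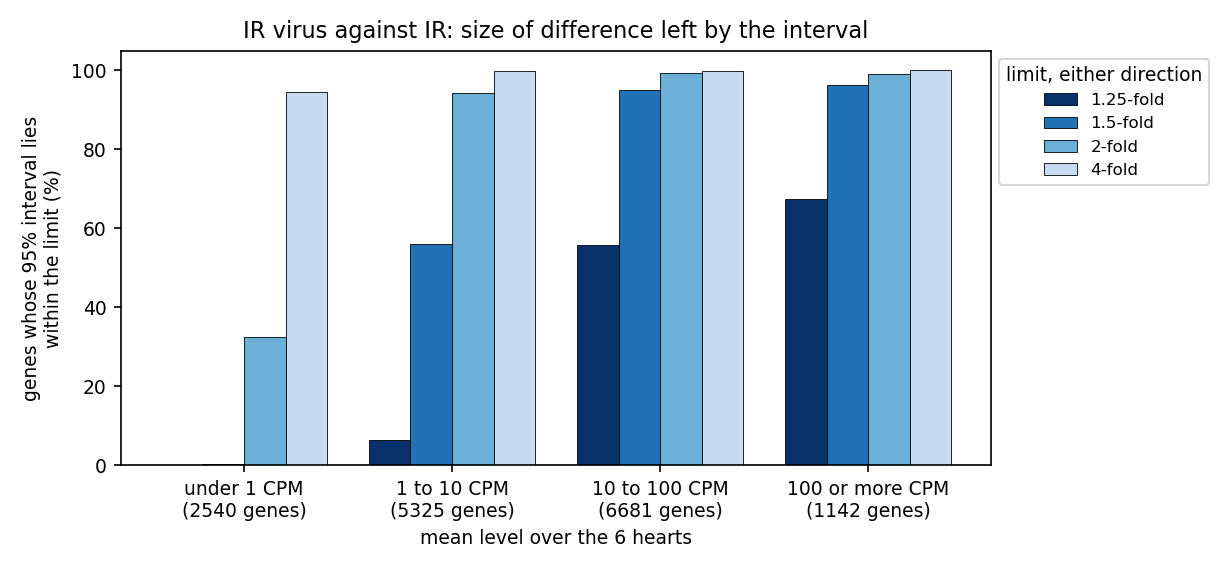
Bars give the percentage of tested genes whose 95% interval for IR virus against IR lies within each of 4 limits in either direction, for 4 bins of mean CPM over the 6 hearts. The share within 2-fold is 32.6% under 1 CPM and at least 94.2% in each of the other bins.

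The 10 genes at 100 CPM or more whose interval reached 2-fold fell into a few kinds. Nppa, Nppb, Myh7 and Postn are genes of muscle stress and scar, described with the injury genes. Acta1, another gene of muscle stress, was at 292, 302 and 278 CPM in IR and at 417, 317 and 318 CPM in IR virus. Acta1 was thus higher in each IR virus heart, with an interval of 0.559-fold to 2.60-fold. Tfrc, the receptor that takes up transferrin iron, stood at 154, 155 and 244 CPM in the IR hearts and at 137, 96.8 and 152 CPM in the IR virus hearts. Its interval ran from 0.398-fold to 1.22-fold, and the log2 fold change was -0.52 with all hearts, -0.26 without IR replicate 3 and -0.35 without IR virus replicate 2. CT010467.1 is annotated as ribosomal RNA. It took 0.472%, 0.799% and 0.137% of all counts in IR replicates 1 to 3 and 0.794%, 0.640% and 0.591% in IR virus replicates 1 to 3, lowest in IR replicate 3. Its log2 fold change was 0.51 with all hearts and 0.08 without IR replicate 3. Gm23935, Gm15564 and Lars2 were also lowest in that heart, and as these 4 can share reads with ribosomal RNA copies, their counts are uncertain.

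The libraries were of like depth. Total counts ran from 22860006 to 23426329 in IR and from 23591648 to 24090431 in IR virus. Transcripts of the mitochondrial genome made up 34.9% ± 0.669 of the counts in IR (SD, n = 3) and 33.2% ± 2.16 in IR virus (n = 3), with the lowest share, 30.7%, in IR virus replicate 1. The counts matched the labelled tissue and sex: sarcomere genes summed to between 66461 and 74884 CPM in the 6 hearts, Ddx3y of the Y chromosome was above 1 CPM in 13 of 13 libraries and Xist was under 1 CPM in 12 of 13.

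Hearts of different groups were as close to each other as hearts of one group. Distance was the root mean square difference in log2 CPM over all tested genes. It ran from 0.310 to 0.402 between IR hearts (median 0.394), from 0.348 to 0.363 between IR virus hearts (median 0.359) and from 0.306 to 0.435 between hearts of different groups (median 0.365). The closest pair of all was 1 IR heart with 1 IR virus heart. No pair agreed within sampling noise, since the chi-square per gene was at least 4.07 for every pair.

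IR replicate 3 stood apart from the rest. On the first principal component of the 6 hearts, which held 30.8% of the variance, its score was -33.4, and those of the other 5 ran from -6.34 to 15.7. The second component held 23.3%. Here IR virus replicate 1 was at -16.2 and replicate 2 at -23.0, with the remaining 4 from 4.92 to 12.3.

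**Figure D2:**
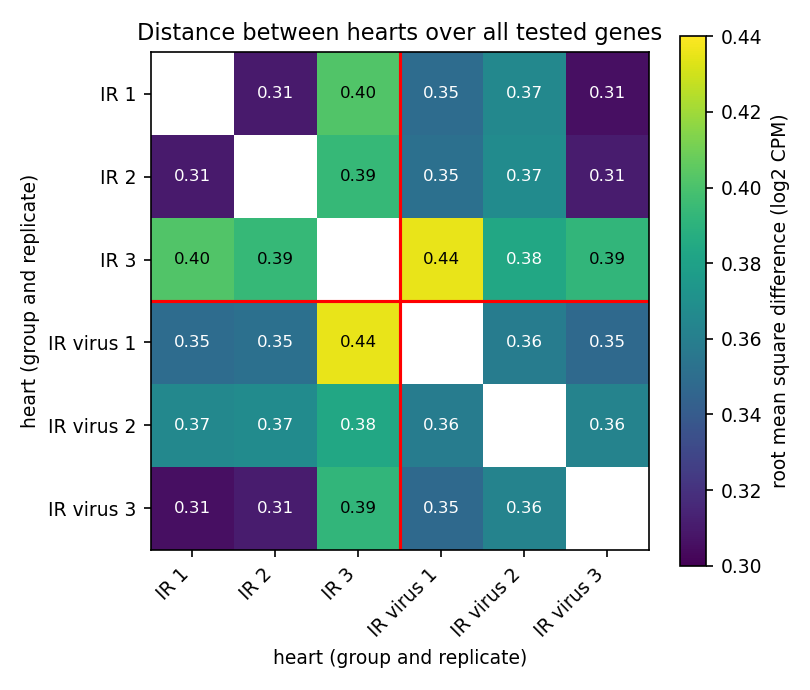
Each cell gives the root mean square difference in log2 CPM over all 15690 tested genes between 2 hearts, with lines between the IR and IR virus hearts. The 9 distances between groups (0.306 to 0.435) span those within IR (0.310 to 0.402) and within IR virus (0.348 to 0.363).

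The differences followed the GC content of the genes. Over the 12980 genes of at least 1 CPM with a known transcript (98.7%), the log2 fold change and the GC content had a Pearson r of 0.464, a description across genes that share the same 6 libraries. The median log2 fold change was -0.09 in the lowest of 5 equal GC bins and 0.14 in the highest. Transcript length had an r of -0.0060. The gradient was steepest in IR virus replicate 1, whose median deviation from the mean of the 6 hearts went from -0.12 in the lowest bin to 0.22 in the highest. In IR virus replicate 2 it went from -0.05 to 0.07, and in IR virus replicate 3 from 0.04 to -0.07, the direction of all 3 IR hearts. Without IR virus replicate 1 the r was 0.229.

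The genes that separated the groups were sorted by GC content in the same way. In the highest GC bin, 337 genes were higher in each IR virus heart than in each IR heart and 17 were lower, while in the lowest bin the counts were 23 and 353. When each library's trend with GC content was removed, an alternative added after the gradient was seen, the r was -0.0013, the call count stayed 0 and 417 genes (2.66%) reached an unadjusted p of 0.05.

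**Figure D3:**
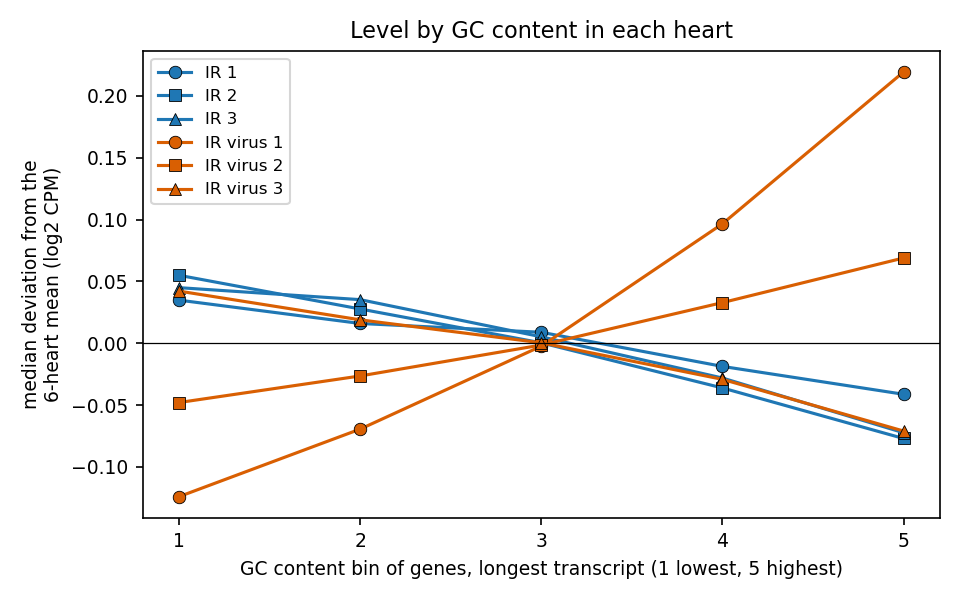
For each of the 6 hearts, the vertical axis shows the median deviation from the mean of the 6 hearts in log2 CPM, and the horizontal axis 5 equal bins of genes by GC content of the longest transcript. IR virus replicate 1 runs from -0.12 to 0.22, and the 3 IR hearts and IR virus replicate 3 run the other way.

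Of the genes that were higher in all IR virus hearts, those with the smallest p encode proteins of unrelated function. Itga3, the integrin α3 chain that binds laminin, stood at 6.67, 6.05 and 6.63 CPM in the IR hearts and at 10.8, 9.07 and 8.50 CPM in the IR virus hearts. The groups were well apart, by a log2 fold change of 0.55 ± 0.13 (SE, n = 3 each). The adjusted p was 0.962, as it was for all genes named in this and the next 2 paragraphs. In mm10 Itga3 occupies bases 95044474 to 95076801 of chromosome 11, minus strand.

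Myh14, a non-muscle myosin heavy chain, was at 60.7, 60.8 and 54.8 CPM in IR and at 85.9, 83.0 and 73.1 CPM in IR virus, with a log2 fold change of 0.46 ± 0.13 (SE). Oplah, the 5-oxoprolinase of glutathione turnover, was at 23.3, 21.8 and 20.5 CPM in IR and at 34.9, 30.2 and 24.2 CPM in IR virus. Nat8l, which makes N-acetylaspartate, was at 1.299, 0.725 and 1.52 CPM in IR and at 2.07, 2.73 and 2.02 CPM in IR virus. In Myh14 and Oplah IR virus replicate 1 was the highest heart, and in Nat8l replicate 2. Zkscan17, Trappc9, Ppp1r16a and Rab11fip5 had log2 fold changes of 0.33 to 0.41. The 8 genes had a GC content of 55.0% to 60.8%, against a median of 49.3% over all genes. With the GC trend removed the values were 0.41 for Itga3, 0.28 for Myh14, 0.29 for Oplah and 0.79 for Nat8l. Ifi211, an interferon-inducible gene of the p200 family, had a log2 fold change of 0.81 ± 0.27 (SE). It was at 1.52, 1.83 and 1.43 CPM in IR and at 2.07, 4.20 and 2.15 CPM in IR virus, so replicate 2 alone was far from the IR hearts.

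Among the genes lower in all IR virus hearts, Emcn, endomucin of capillary and venous endothelium, was at 48.1, 48.4 and 48.3 CPM in IR and at 40.0, 36.2 and 43.8 CPM in IR virus. The IR hearts hardly varied and the log2 fold change was -0.27 ± 0.078 (SE). Gimap9, a GTPase gene of lymphocytes, was at 4.46, 3.41 and 4.03 CPM in IR and at 2.03, 2.65 and 3.07 CPM in IR virus, a log2 fold change of -0.62 ± 0.20 (SE). Mrps33, a protein of the mitochondrial ribosome, was at 8.70, 7.97 and 9.19 CPM in IR and at 5.69, 7.39 and 6.36 CPM in IR virus. These genes overlapped in no heart, and none differed by 2-fold in the estimate. Ublcp1, Harbi1, Taf2, Cyp20a1 and Tmco1 had log2 fold changes of -0.20 to -0.36. The 8 genes with the smallest p in this direction had a GC content of 40.7% to 46.2%. With the GC trend removed the log2 fold changes were -0.19 for Emcn, -0.55 for Gimap9 and -0.35 for Mrps33.

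Interferon-stimulated genes were not higher in IR virus as a group. All 51 listed genes were tested, 0 were called, 16 had a positive and 35 a negative log2 fold change, and the median was -0.06 beside 0.00063 over all tested genes. The intervals of 47 lay within 2-fold and of 31 within 1.5-fold. One member, Lgals3bp, was higher in each IR virus heart than in each IR heart, and 4 were lower, namely Oas1a, Gbp4, Tgtp1 and Tgtp2, beside 5.86% and 6.09% of all genes. The summed level of the list was 908, 895 and 991 CPM in IR and 847, 885 and 909 CPM in IR virus, so the groups overlapped. The member with the smallest p was Phf11d, at a log2 fold change of -0.26 with an interval of 0.692-fold to 1.012-fold.

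Isg15, a ubiquitin-like protein, was at 1.99, 1.75 and 1.52 CPM in IR and at 2.71, 1.51 and 1.73 CPM in IR virus. IR virus replicate 1 was the highest of the 6 hearts and the other 5 overlapped, and the interval ran from 0.781-fold to 1.64-fold. Ifit1, which binds foreign RNA ends, was at 9.53, 11.2 and 8.54 CPM in IR and at 10.3, 9.996 and 10.2 CPM in IR virus. The IR virus hearts lay within the range of the IR hearts, with an interval of 0.784-fold to 1.40-fold. Irf7, the transcription factor that amplifies interferon production, was at 9.09, 7.03 and 7.06 CPM in IR and at 8.36, 9.45 and 7.58 CPM in IR virus, with an interval of 0.828-fold to 1.45-fold. Cxcl10, a chemokine induced by interferon γ, was at 0.736, 0.938 and 0.433 CPM in IR and at 0.955, 0.924 and 1.09 CPM in IR virus. Its groups overlapped at this low level and the interval was wider, from 0.909-fold to 2.17-fold. Of the other well-known members, Mx1 had an interval of 0.684-fold to 1.91-fold and Irf9 of 0.851-fold to 1.17-fold.

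The genes whose promoters hold the motif shown for Isg15 and Ifit1 lay on both sides of 0. Of the 357 tested genes with the motif, 172 had a positive and 185 a negative log2 fold change, with a median of -0.0070. None was called and 16 reached an unadjusted p of 0.05. The groups did not overlap for 17 on the higher side and 30 on the lower, beside 5.86% and 6.09% of all genes, and 313 had an interval within 2-fold. Of the interferon list, 38 members had a promoter in the table and 21 held the motif. Their log2 fold changes ran from -0.68 to 0.28 with a median of -0.08, 6 above 0 and 15 below. Tgtp1, an interferon-induced GTPase, had the lowest value: it was at 2.38, 2.73 and 4.85 CPM in IR and at 2.23, 1.68 and 2.31 CPM in IR virus, with IR replicate 3 far above the rest. The value was -0.30 without that heart. Gbp4, a guanylate-binding protein, showed the same heart highest, at 45.5, 44.9 and 65.0 CPM in IR against 38.6, 35.0 and 42.0 CPM in IR virus. Its log2 fold change was -0.43 with all hearts and -0.23 without IR replicate 3.

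The sensors of foreign nucleic acid and their adaptors leaned to neither side. Of 23 tested members, 12 had a positive and 11 a negative log2 fold change, 0 were called and 22 had an interval within 2-fold. The median was 0.0042. Ticam1, the adaptor TRIF of Toll-like receptors, was at 5.72, 5.71 and 6.02 CPM in IR and at 8.48, 7.90 and 6.73 CPM in IR virus, a log2 fold change of 0.41 with an interval of 1.09-fold to 1.61-fold. Its value was 0.29 with the GC trend removed. Tlr9, the receptor for unmethylated DNA, had an interval of 0.902-fold to 2.21-fold and Ddx58, which encodes RIG-I, of 0.800-fold to 1.04-fold. Ticam1 and Tlr9 were higher and Ddx58 lower in each IR virus heart than in every IR heart, beside 5.86% and 6.09% of all genes. Mb21d1, which encodes cGAS, was at 1.56, 2.26 and 2.34 CPM in IR and at 1.39, 1.39 and 1.68 CPM in IR virus. It overlapped in 1 heart, with an interval of 0.504-fold to 1.04-fold.

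Genes that adeno-associated virus, a common carrier for the heart, uses to enter cells were examined although the labels do not name the virus. Of 22 tested members, 10 had a positive and 12 a negative log2 fold change, with a median of -0.01, and 21 had an interval within 2-fold. AU040320, which encodes the receptor AAVR, had an interval of 0.979-fold to 1.28-fold, and Gpr108, another entry factor, of 0.937-fold to 1.2997-fold. Hspg2, the heparan sulphate proteoglycan perlecan, was at 256, 279 and 311 CPM in IR and at 461, 343 and 303 CPM in IR virus, with IR virus replicate 1 the highest.

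Antigen presentation was tightly bounded as well. All 28 tested MHC and peptide-loading genes had an interval within 2-fold and 21 within 1.5-fold, 16 were on the positive and 12 on the negative side, and the median was 0.03. B2m, the light chain of MHC class I, was at 247, 246 and 269 CPM in IR and at 211, 204 and 232 CPM in IR virus. All IR virus hearts lay below all IR hearts, by a log2 fold change of -0.24 with an interval of 0.708-fold to 1.013-fold. With the GC trend removed the log2 fold change of B2m was -0.16. H2-M3 and Tapbpl of the same list were higher in each IR virus heart. The list thus had 2 higher and 1 lower, beside 5.86% and 6.09% of all genes. H2-K1, a class I heavy chain, was at 98.8, 91.4 and 94.3 CPM in IR and at 103, 91.7 and 87.4 CPM in IR virus, and the groups overlapped. Cd74, the invariant chain of class II, was at 48.3, 47.8 and 58.9 CPM in IR and at 64.5, 65.2 and 48.2 CPM in IR virus, also with overlap.

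Transcripts of T cells and NK cells were near the floor in both groups. Only 6 of 36 listed genes passed the filter on low counts. None of the 6 had a positive log2 fold change, and their median was -0.12, which was -0.30 without IR replicate 3, -0.26 without IR virus replicate 1, -0.04 without IR virus replicate 3 and -0.02 in a fit of the 2 groups alone. Cd3e, a chain of the T cell receptor complex, had 2, 2 and 5 counts in IR and 8, 2 and 4 in IR virus. Cd8a, the coreceptor of cytotoxic T cells, had 5, 6 and 6 counts in IR and 3, 7 and 2 in IR virus. Neither gene was tested and no difference of theirs was detectable at this depth. In whole-heart RNA fewer cells of a type and less RNA per cell cannot be told apart. The summed level of the list was 13.7, 12.1 and 12.7 CPM in IR and 13.5, 11.8 and 10.6 CPM in IR virus.

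B cell and plasma cell genes gave 17 tested members of 28, with 8 positive and 9 negative log2 fold changes and a median of -0.09. Ighm, the heavy chain of IgM, was at 8.44, 8.95 and 7.71 CPM in IR and at 9.87, 10.9 and 8.88 CPM in IR virus. The groups overlapped in 1 heart and the interval was 0.965-fold to 1.45-fold. Jchain, which joins secreted antibodies, was at 0.303, 0.213 and 0.477 CPM in IR and at 0.199, 0.630 and 0.337 CPM in IR virus. Cd79b, a chain of the B cell receptor, was at 0.476, 0.597 and 0.520 CPM in IR and at 0.279, 0.210 and 0.210 CPM in IR virus, a log2 fold change of -1.17 with an interval of 0.230-fold to 0.862-fold at a level of a few counts. In the Sham hearts it was at 0.236 ± 0.0591 CPM (SD, n = 3).

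Macrophage and monocyte genes overlapped between the groups in their summed level. Of 27 tested members of 30, 13 were on the positive and 14 on the negative side, the median was -0.02, and the summed level ran from 376 to 398 CPM in IR and from 380 to 399 CPM in IR virus. Adgre1, the macrophage marker F4/80, was at 14.3, 13.4 and 12.4 CPM in IR and at 13.3, 13.5 and 12.5 CPM in IR virus, with an interval of 0.785-fold to 1.22-fold. Csf1r, the receptor for the growth factor of macrophages, was higher in each IR virus heart, with an interval of 0.888-fold to 1.54-fold. The macrophage list thus had 1 higher and 0 lower, beside 5.86% and 6.09% of all genes. Of granulocyte, mast and dendritic cell genes 13 of 24 were tested, and Ly6g and Mpo, which mark neutrophils, had no count in any of the 6 hearts. Xcr1, the chemokine receptor of cross-presenting dendritic cells, was at 0.606, 0.810 and 0.737 CPM in IR and at 1.07, 1.55 and 1.22 CPM in IR virus. Its log2 fold change was 0.83 with an interval of 1.17-fold to 2.71-fold, while Clec9a, a marker of the same cells, was lower in each IR virus heart at a log2 fold change of -0.15.

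Among soluble mediators, cytokine, chemokine and NFκB genes gave 28 tested members, 16 positive and 12 negative, with a median of 0.04. For none of them did the 2 groups fail to overlap, beside 12% of all genes. Ccl2, which attracts monocytes, was at 1.47, 1.79 and 1.3002 CPM in IR and at 2.07, 1.47 and 1.89 CPM in IR virus. Of 19 complement genes 12 were positive and 7 negative, with a median of 0.06. Of these, C4b, a complement component, was higher in each IR virus heart, with an interval of 0.787-fold to 2.05-fold. Cfp, which encodes properdin, was lower in each, with an interval of 0.540-fold to 1.14-fold. The complement list thus had 1 higher and 1 lower, beside 5.86% and 6.09% of all genes.

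Several genes of the scar and of muscle stress had higher means in both injured groups than in Sham, with a wide spread within each group. Among the injury genes named here, Thbs4 and Ano10 passed the test against Sham. Thbs4, a matricellular protein, averaged 4.15 ± 0.377 CPM in Sham, 22.4 ± 6.69 in IR and 22.9 ± 7.38 in IR virus (SD, n = 3 each). The IR hearts were at 25.7, 26.8 and 14.7 CPM and the IR virus hearts at 27.5, 14.4 and 26.9 CPM, so each group held 2 hearts near one level and 1 heart lower. Its log2 fold change was 2.43 for IR minus Sham and 2.46 for IR virus minus Sham, comparisons that share the Sham hearts (adjusted p = 0.0345 and 0.0288 by edgeR). Between IR virus and IR the interval was 0.652-fold to 1.61-fold. Ano10, an anoctamin and the gene lower after injury in both groups, averaged 32.3 ± 0.669 CPM in Sham, 20.8 ± 0.554 in IR and 20.6 ± 0.882 in IR virus (adjusted p = 0.00738 and 0.00596 by edgeR). It was bounded tightly, between 0.886-fold and 1.11-fold.

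Cilp, a secreted matrix protein, was at 54.6, 56.5 and 29.3 CPM in IR and at 67.7, 31.0 and 66.0 CPM in IR virus, against a mean of 6.26 ± 1.46 CPM in Sham (SD, n = 3). Postn, periostin of activated fibroblasts, was at 204, 193 and 96.7 CPM in IR and at 171, 103 and 194 CPM in IR virus, against 52.8 ± 2.59 CPM in Sham. Sfrp2, a modulator of Wnt signalling, was at 13.4, 14.4 and 5.03 CPM in IR and at 16.3, 6.76 and 13.01 CPM in IR virus, against 1.86 ± 0.407 CPM in Sham. In all 3 genes the lower hearts were IR replicate 3 and IR virus replicate 2. The range among hearts of one group was wider than the difference between the groups, and the intervals were 0.548-fold to 2.51-fold for Cilp, 0.439-fold to 2.04-fold for Postn and 0.574-fold to 2.104-fold for Sfrp2. Over the 48 tested genes of activated fibroblasts, 31 were positive and 17 negative, the median was 0.03, and 34 had an interval within 2-fold. The median went from -0.08 without IR replicate 3 to 0.18 without IR virus replicate 2.

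Collagens leaned to the higher side in IR virus. Of 30 tested members 26 lay on the higher side, where 50.2% of all genes did, and the median was 0.18. None was called, and 28 had an interval within 2-fold. Col1a1, the main chain of scar collagen, was at 91.7, 101 and 70.4 CPM in IR and at 153, 79.3 and 114 CPM in IR virus, with an interval of 0.886-fold to 1.96-fold. Col3a1 was at 459, 452 and 268 CPM in IR and at 528, 283 and 495 CPM in IR virus, and its groups overlapped too. Col4a2 and Col18a1, of basement membranes, were higher in each IR virus heart, with intervals of 0.968-fold to 1.64-fold and 0.978-fold to 1.64-fold. The list thus had 2 higher and 0 lower, beside 5.86% and 6.09% of all genes. The log2 fold change of Col18a1 was 0.34, and 0.16 with the GC trend removed. The median of the list was 0.08 without IR virus replicate 1, 0.36 without IR virus replicate 2, 0.08 without IR replicate 3 and 0.11 with the GC trend removed.

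Among 23 tested genes of cardiac stress, 15 were positive and 8 negative, with a median of 0.06. Acta1, Nrap, Mybphl and Ace were higher in each IR virus heart and Nppb was lower, so 4 against 1, beside 5.86% and 6.09% of all genes. Nppa, the atrial natriuretic peptide, was at 167, 133 and 74.4 CPM in IR and at 154, 146 and 153 CPM in IR virus, against 21.1 ± 6.97 CPM in Sham (SD, n = 3). Its log2 fold change was 0.27 with all hearts and 0.0051 without IR replicate 3. Nppb, the B-type peptide, was at 173, 168 and 177 CPM in IR and at 161, 111 and 157 CPM in IR virus, against 73.2 ± 47.2 CPM in Sham, where replicate 2 reached 116 CPM. Nppb was lower in each IR virus heart, and its interval ran from 0.419-fold to 1.64-fold, from a spread estimated over all 4 groups. Myh7, the slow myosin heavy chain, was at 691, 651 and 319 CPM in IR and at 829, 650 and 725 CPM in IR virus. The log2 fold change was 0.41 with all hearts and 0.13 without IR replicate 3. Ankrd1, a stress protein of the sarcomere, was at 2775, 2733 and 2506 CPM in IR and at 2402, 1932 and 2665 CPM in IR virus, with an interval of 0.566-fold to 1.35-fold. Genes of dividing cells had 28 of 31 tested members on the positive side and a median of 0.16, which was 0.05 without IR replicate 3. Mki67, a marker of cycling cells, was at 8.62, 9.85 and 7.63 CPM in IR and at 8.88, 12.3 and 10.9 CPM in IR virus.

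**Figure D4:**
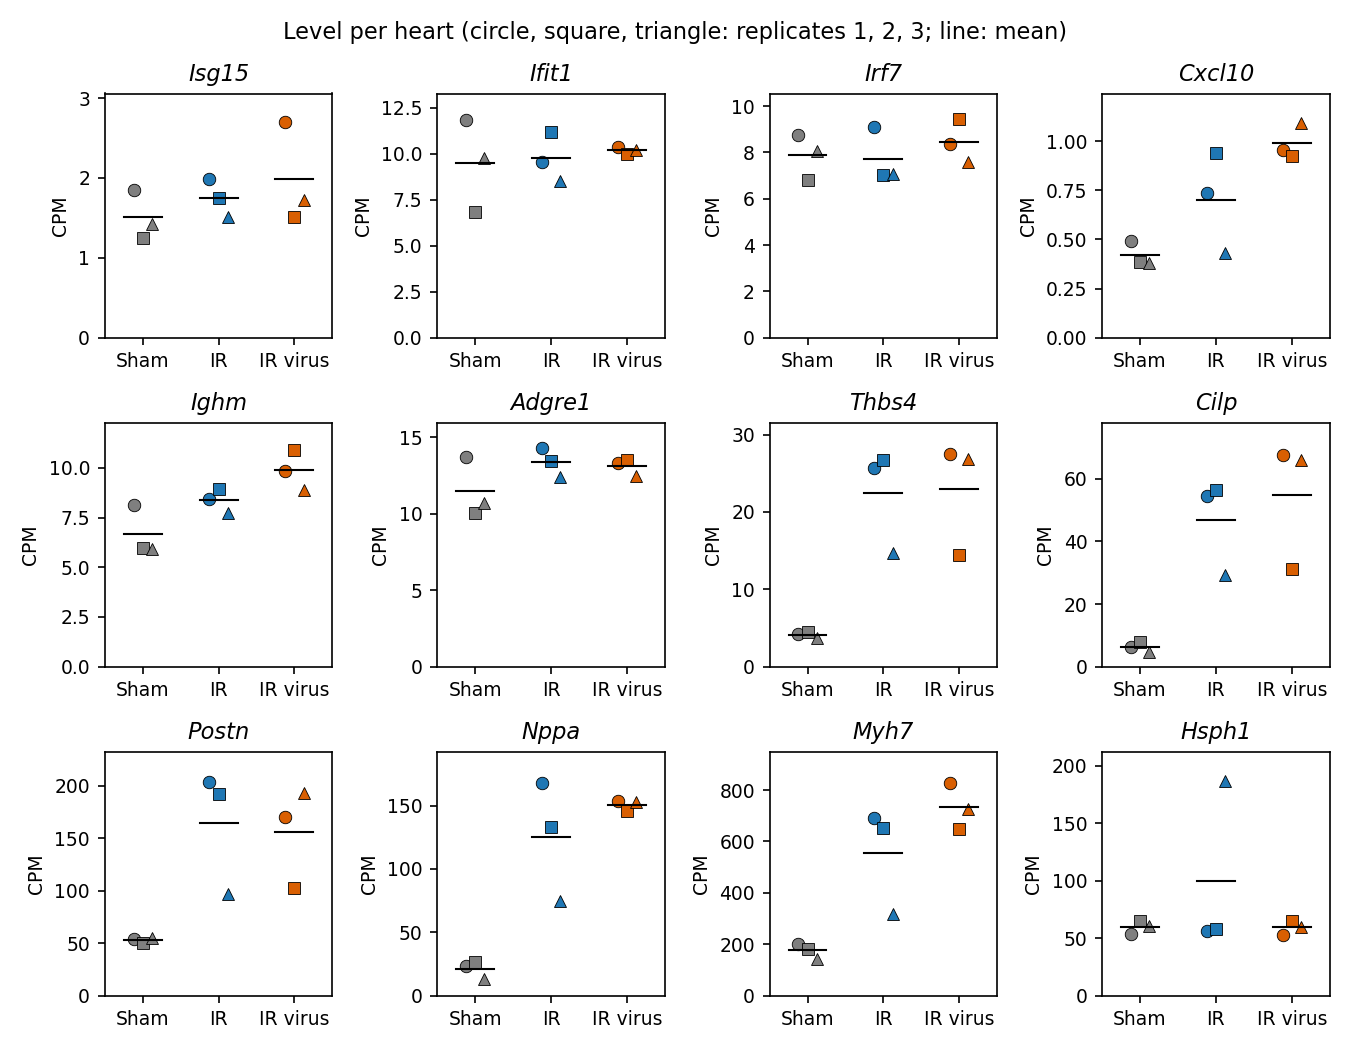
Each point is 1 heart, its level in CPM on an axis from 0, for 12 genes in Sham, IR and IR virus, with a line at the mean of 3 hearts. Isg15, Ifit1, Irf7 and Adgre1 overlap between IR and IR virus, Thbs4, Cilp and Postn split 2 hearts to 1 in both groups, and Hsph1 is high in IR replicate 3 alone.

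Camk2d, which encodes the kinase CaMKIIδ targeted by the editing system elsewhere in the study, was at 235, 245 and 243 CPM in IR and at 221, 197 and 233 CPM in IR virus. All IR virus hearts lay below all IR hearts, by a log2 fold change of -0.15 with an interval of 0.762-fold to 1.07-fold. It was -0.09 with the GC trend removed. The Sham hearts were at 199, 274 and 280 CPM for Camk2d. Of the 35 tested genes of calcium handling and CaMKII, 18 were positive and 17 negative, with a median of 0.0013, and 31 had an interval within 2-fold. In each IR virus heart Cacna1c and Mef2d were higher and Camk2d lower than in each IR heart. The list thus had 2 higher and 1 lower, beside 5.86% and 6.09% of all genes. Ryr2, the calcium release channel, had an interval of 0.818-fold to 1.13-fold and Atp2a2, the calcium pump of the sarcoplasmic reticulum, of 0.835-fold to 1.20-fold. Mef2d, a transcription factor downstream of CaMKII, was at 101, 102 and 106 CPM in IR and at 129, 120 and 109 CPM in IR virus.

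Sarcomere genes had 28 of 29 members with an interval within 2-fold and a median log2 fold change of 0.04. Myh6, the fast myosin heavy chain of the adult mouse heart, was at 14694, 13931 and 15517 CPM in IR and at 16978, 17968 and 16030 CPM in IR virus. The summed level of the list, which Myh6 adds much to, was also higher in each IR virus heart. Myom2, an M-band protein, was at 1797, 1764 and 1166 CPM in IR and at 1956, 1995 and 1890 CPM in IR virus. IR replicate 3 was far below the rest, and the log2 fold change was 0.31 with it and 0.13 without it. Of 25 ion channel genes 18 were positive, the median was 0.09, and it was 0.0079 with the GC trend removed.

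Energy metabolism was tightly bounded. All 67 nuclear genes of the respiratory chain had an interval within 1.5-fold, with 36 positive and 31 negative and a median of 0.0041. In all IR virus hearts 8 of them were lower and 0 higher, beside 6.09% and 5.86% of all genes. All 36 genes of fatty acid use lay within 2-fold, 18 on each side. Pnpla2, the triglyceride lipase ATGL, was at 130, 133 and 133 CPM in IR and at 178, 158 and 143 CPM in IR virus, a log2 fold change of 0.28 that was 0.15 with the GC trend removed. Cd36, which takes up fatty acids, was at 2281, 2336 and 2416 CPM in IR and at 2001, 2074 and 2258 CPM in IR virus. Both separated the groups, in opposite directions. In this list 4 genes were higher and 4 lower in each IR virus heart, beside 5.86% and 6.09% of all genes. The summed level of fatty acid genes was lower in each IR virus heart. All 26 genes of the citric acid cycle and pyruvate oxidation lay within 2-fold, with 17 negative, a median of -0.03, and 8 lower against 1 higher in all IR virus hearts, where all genes gave 6.09% and 5.86%. The 13 genes of the mitochondrial genome had a median of -0.02 and 12 lay within 2-fold.

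Several heat shock genes were highest in IR replicate 3. Of 22 heat shock genes 20 were on the negative side, with a median of -0.19 and 0 called. Hsph1, a co-chaperone of the HSP70 system, was at 56.2, 57.7 and 186 CPM in IR and at 53.1, 65.3 and 59.7 CPM in IR virus. IR replicate 3 alone was high, and the log2 fold change was -0.75 with it and 0.06 without it. Hsp90aa1, an inducible chaperone, was at 65.1, 62.5 and 161 CPM in IR and at 57.2, 64.6 and 70.2 CPM in IR virus, a log2 fold change of -0.59 with IR replicate 3 and 0.0048 without it. Without that heart the median of the list was 0.010. Of 29 genes of the p53 response, 13 were positive and 16 negative with a median of -0.02, and of 26 genes of the unfolded protein response 7 were positive and 19 negative with a median of -0.05. This last median was -0.04 without IR replicate 3, -0.11 without IR virus replicate 1, and -0.13 both without IR replicate 2 and with the GC trend removed. In the unfolded protein response Dnajb9, Dnajc3 and Atf3 were lower, and Sesn2 and Aldh18a1 higher, in each IR virus heart than in each IR heart. Over all genes these shares were 6.09% lower and 5.86% higher. Sesn2, a stress-induced regulator in both lists, was at 1.95, 2.26 and 2.56 CPM in IR and at 3.26, 3.15 and 2.82 CPM in IR virus, with an interval of 1.05-fold to 1.77-fold.

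In the list of 21 clock genes IR virus replicate 2 was the highest of the 6 hearts for 12 and the lowest for 2, and IR replicate 3 was the lowest for 9. Arntl, the clock activator BMAL1, was at 6.23, 7.59 and 4.85 CPM in IR and at 6.01, 1.43 and 6.27 CPM in IR virus. Per2, a clock repressor, was at 14.5, 15.6 and 18.6 CPM in IR and at 14.1, 32.8 and 14.0 CPM in IR virus. Outside that list, Zbtb16, a glucocorticoid-induced transcription factor, was at 20.5, 18.4 and 35.9 CPM in IR and at 21.97, 68.97 and 20.5 CPM in IR virus. In each of these 3 genes IR virus replicate 2 was the extreme heart, and without it the log2 fold change was -0.02 for Arntl, -0.21 for Per2 and -0.23 for Zbtb16. They were picked after their values were seen, and the labels give no time of day. Of 21 clock genes 17 were positive with a median of 0.18, which was 0.03 without IR virus replicate 2. Dbp, a clock output gene, was at 38.1, 35.7 and 30.0 CPM in IR and at 46.1, 44.9 and 34.4 CPM in IR virus. Fos, an immediate early gene, was at 1.26, 1.41 and 1.084 CPM in IR and at 1.75, 1.01 and 1.26 CPM in IR virus, with overlap. Scd1, a fatty acid desaturase that is high in fat cells, was at 45.8 CPM in IR virus replicate 2 and between 19.9 and 22.4 CPM in the other 5 hearts. The median of the fat cell list was 0.23 with that heart and 0.0010 without it.

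Genes of other cell types that a whole heart holds or carries along gave medians of 0.04 to 0.09 for endothelium, mural cells and resting fibroblasts, and a higher one for red blood cells. Endothelial genes were at 0.04 and all 20 lay within 2-fold. Vwf, the von Willebrand factor, was at 51.4, 52.8 and 43.8 CPM in IR and at 82.9, 59.4 and 63.9 CPM in IR virus, opposite in direction to Emcn of the same list. All 17 smooth muscle and pericyte genes lay within 2-fold, with a median of 0.06. Notch3, a receptor of mural cells, was at 28.0, 31.1 and 30.4 CPM in IR and at 47.4, 34.4 and 34.4 CPM in IR virus, with IR virus replicate 1 far above the others. Resting fibroblast genes had a median of 0.09. The 9 tested red blood cell genes were all on the positive side with a median of 0.31, which was 0.17 without IR virus replicate 2 and 0.23 without IR replicate 3. Hba-a2, a globin gene with a near-identical copy, was at 8.66, 11.8 and 8.71 CPM in IR and at 16.2, 14.0 and 10.4 CPM in IR virus, and the groups overlapped. Ppbp, a platelet chemokine, was at 4.59 CPM in IR replicate 3 and at 1.09 CPM or less in the other 5 hearts, and its log2 fold change was -1.53 with that heart and -0.27 without it. Of 10 lung genes 1 was tested, and 6, among them the surfactant genes Sftpc, Sftpa1 and Sftpd, had no count in any of the 6 hearts.

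Across all 43 lists, 894 of 1032 genes were tested and 0 were called. Of the 825 at 1 CPM or more, 762 had an interval within 2-fold. Of the 40 lists with at least 5 tested members, 6 had a median above 0.1 and 2 below -0.1. The 6 were collagens, dividing cells, the clock, fat cells, red blood cells and nerve cells, and the 2 were T and NK cells and heat shock.

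**Figure D5:**
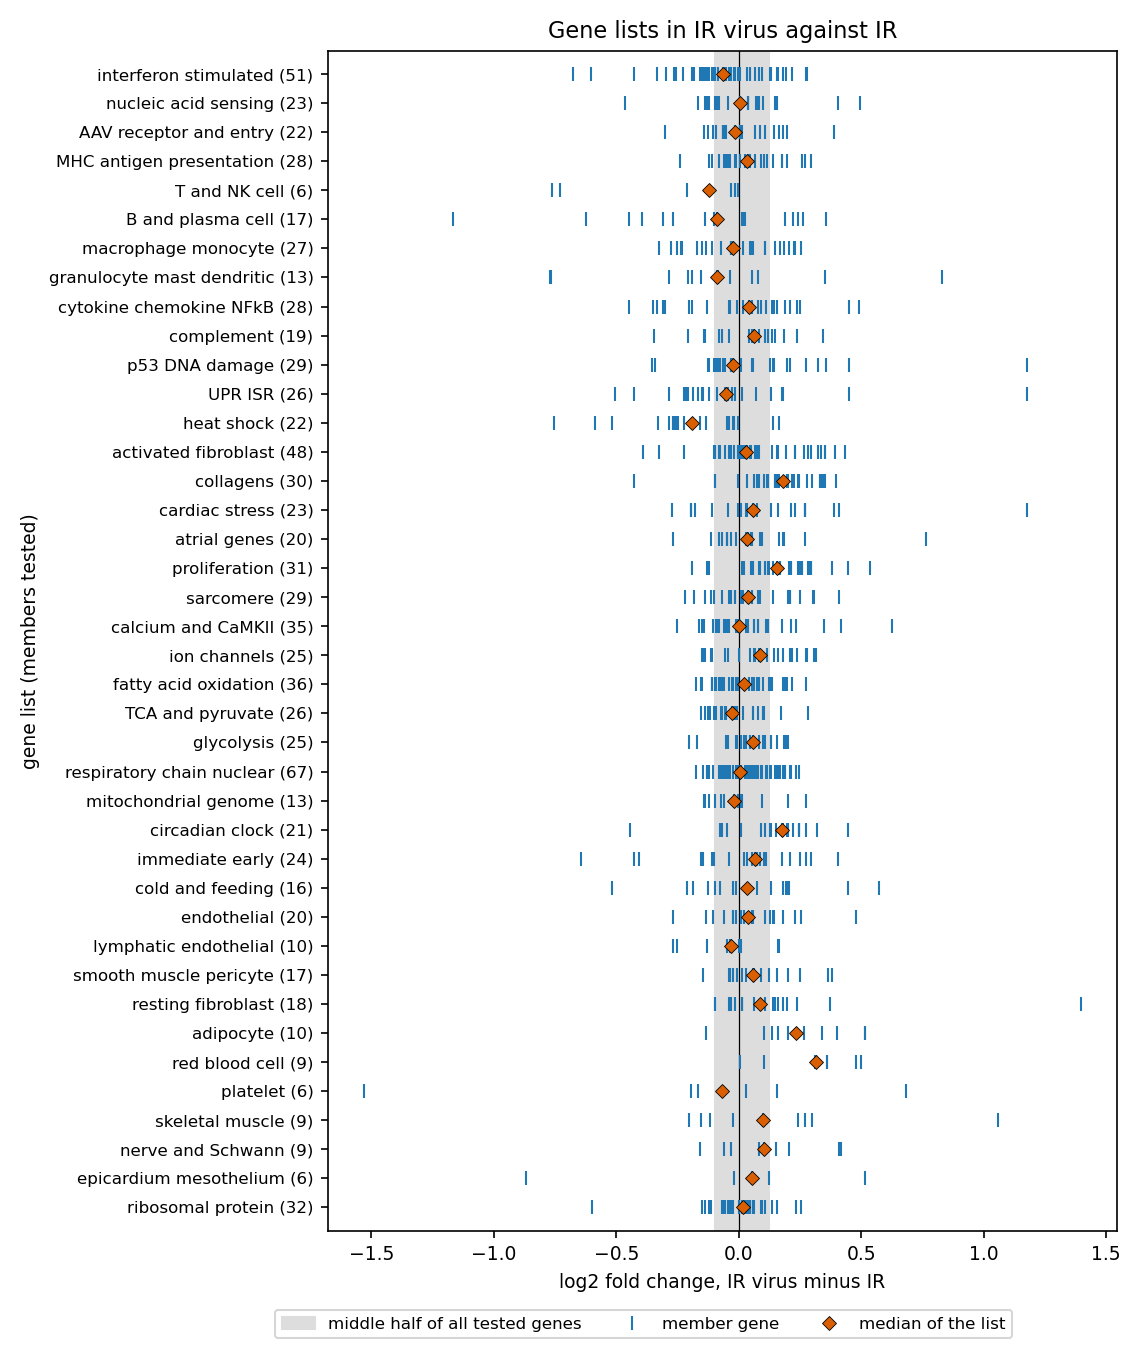
Each row is a gene list with its number of tested members, each tick the log2 fold change of 1 member (IR virus minus IR), each diamond the median of the list, and the grey band the range between the quartiles of all tested genes. Interferon-stimulated genes have their median at -0.06 and collagens at 0.18.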

How the data were processed

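Each library has 1 deposited file of unnormalized read counts, with 53278 gene symbols. The submitters' processing notes name featureCounts 1.6.2, HISAT2 2.1.0, Trimmomatic 0.39 and FastQC 0.11.8, with genome mm10. Per the labels' protocols RNA came from whole hearts and libraries from an mRNA kit. Neither annotation nor strand setting is given in the sources used here.

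Counts were fitted in R 4.3.3 with edgeR 4.0.16: TMM scaling, filterByExpr, and a quasi-likelihood fit with a mean per group over all 13 libraries (9 residual and 6.08 prior degrees of freedom, common biological coefficient of variation 0.116). P-values were adjusted by Benjamini-Hochberg over 15690 genes. The 95% interval of a log2 fold change used the fit's standard error and a t distribution with 15.1 degrees of freedom, and 2 genes had none. The pipeline was tested on simulated data. Other settings tried were DESeq2 1.42.0 and its size factors, limma-voom (limma 3.58.1), scaling without mitochondrial genes, other filters, a robust dispersion, fewer groups in the fit, the replicate number as a block, each heart left out and, added after the data were seen, removal of each library's GC trend.

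Positions, lengths and GC content came from GENCODE M21 and promoters from RefSeq for GRCm38.p6. The named genes were chosen among those of at least 1 CPM whose groups do not overlap. Per direction they were the 8 with the smallest p, and the 6 with the largest log2 fold change at an unadjusted p under 0.01. To these came any gene called, the smallest p of each list, and a fixed set of 23. Not every gene chosen by this rule is described in the text. Unnamed transcripts were passed over. Further list members were named after their values were seen. The comparison, its members and the 43 lists were chosen with earlier results of these data known. Replicate numbers were not used to pair the hearts in the main fit.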

Additional observations from a re-analysis of the deposited data

Results flagged for a closer look

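The 6 hearts compared come in groups of 3, which are too small for a test of single outlying hearts. The 4 IR edit hearts, which enter the fit only for its spread, were tested for the named genes, total counts and mitochondrial share. In 6 of 86 cases 1 heart lay apart from the other 3 by more of the range than Dixon's limit allows. Chance gives about 5% of such cases. IR edit replicate 3 was low for Zkscan17 (11.4 CPM against 12.4 to 12.5), for Rab11fip5 (74.5 against 85.4 to 87.6), for Hspg2 (250 against 361 to 379) and for Flt4 (17.2 against 20.8 to 21.4). IR edit replicate 4 was high for Tmco1 (66.1 CPM against 62.7 to 63.2), and IR edit replicate 1 for Ahsg (2.89 against 1.255 to 1.501).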

How the results depend on the processing

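The count of genes called was 0 under each setting tried except 2. Without the filter on low counts it was 37 of 31973 genes, 34 of which had also been tested with the filter. Among them were Hsph1, Ppbp and Gbp4, highest in IR replicate 3, along with Myh14 and Myh7. Scd1, Gm4841 and BC023105, also called, were highest in IR virus replicate 2. Gm4841 had 53, 46 and 30 counts in IR and 52, 330 and 52 in IR virus. BC023105 had 48, 53 and 60 counts in IR and 55, 303 and 66 in IR virus. Leaving out each heart in turn gave 0 to 1 gene. The 1 was Gm13341, an unprocessed pseudogene that may share reads with its copies, without IR replicate 3 (log2 fold change -1.94, adjusted p = 0.0110 by edgeR). The share of genes at an unadjusted p of 0.05 ran from 1.54% without IR virus replicate 1 to 7.07% without IR virus replicate 3, and was 6.17% in a fit of the 2 groups alone. Genes within 2-fold made up 80.9% to 95.8% of those tested, and 43.6% without the filter.

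The number in the title showed no clear pairing: the deviations of same-numbered hearts from their group means had correlations of 0.078, -0.13 and -0.086. Differently numbered hearts had correlations of -0.13 to 0.21. With means of 3 hearts these values cannot decide whether hearts were paired. With that number as a replicate block 0 genes were called, 973 (6.2%) reached an unadjusted p of 0.05, and Postn had a log2 fold change of 0.028.

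Across the settings, 1460 log2 fold changes of named genes kept their sign and side of the threshold, 5 newly passed it (all without the filter) and 30 changed sign. List medians moved by more than the spread between hearts 29 times and by less 690 times. With the GC trend removed the values were 0.00060 for Hopx, 0.0030 for Adgre1, -0.037 for Thbs4 and 0.026 for Postn. With the GC trend removed in a fit of the 2 groups they were 0.0021 for Adgre1, -0.039 for Thbs4 and 0.030 for Postn. Leaving out each heart in turn gave ranges of -0.082 to 0.021 for Adgre1, -0.034 to 0.023 for Ano10, -0.016 to 0.51 for Cilp, -0.065 to 0.38 for Col3a1, -0.14 to 0.27 for Fos, -0.12 to 0.0063 for Hopx, -1.04 to 0.060 for Hsph1, -0.022 to 0.17 for Ifit1, -0.11 to 0.34 for Isg15, -0.31 to 0.57 for Jchain, -0.35 to 0.15 for Postn, -0.21 to 0.42 for Sfrp2 and -0.19 to 0.28 for Thbs4.

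Depth limits the genes under 1 CPM, of which 32.6% were bounded within 2-fold.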
